A study of Mus musculus with 32 samples.

Results

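Cdc6, Mcm2, Pcna, Rrm2 and Top2a, genes of the DNA replication machinery, were followed in the spleen and liver of mice cloned by nuclear transfer. They are 5 of the 9026 genes named on the array, measured by 8 of its 20794 probes, of which 12760 had a gene name. They were chosen from their ratios in clone spleen, so their spleen values are given here as a description with no test, and their liver values, which the choice did not use, were tested. A probe was given a gene through a table of the platform read with a shift of 11 rows, a correction found from these data and not from the labels. With the shift, the 2 probes of a gene had a Pearson r over 16 spleen arrays of 0.963 for Pcna, 0.529 for Rrm2 and -0.606 for Cdc6. Without it, the probes so named had an r of -0.284 for Pcna (15 arrays), 0.55 for Rrm2 and 0.126 for Cdc6 (14 arrays each), so the members' own probes do not settle the shift.

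The cloned animals were male 129/SvJ mice aged 18 to 19 weeks in cohorts of 4. The Dll1 cohort was cloned on a Dll1 background ("Dll1 cloned") and was compared with pooled RNA of conventionally bred Dll1 heterozygotes, so that clone and pool both carry a Dll1 change, whose zygosity in the clones the labels do not give. Dll1 encodes a ligand of the Notch receptors. The other was cloned on a wild-type background ("wt cloned") and was compared with a pool of conventionally bred wild-type mice of the same sex, strain and age. Total RNA of the whole organ was hybridised on 2-colour arrays, liver and spleen coming from the same animals. Each organ of each mouse was run on 2 arrays with the dyes exchanged, which gave 32 arrays, and all mice of a cohort were set against the same pool, so the spread between mice does not hold the spread among conventional animals. The labels list 4 mouse identifiers per pool, whereas the protocol speaks of 6 animals. A value below is the log2 ratio of clone over pool, averaged over the probes of a gene and over both arrays of a mouse: 0 means equal, and -1 means that the clone had 50% of the pool's signal.

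DNA replication starts where Cdc6 helps to load the ring-shaped MCM helicase, of which Mcm2 is a subunit, onto origins. Pcna is the sliding clamp that holds polymerases on the template, Rrm2 is the small subunit of ribonucleotide reductase, which makes deoxynucleotides, and Top2a is the topoisomerase that untangles daughter strands. Transcripts of these genes are low in resting cells and high in dividing ones. In adult mice the spleen holds dividing red cell precursors and activated lymphocytes, whereas most liver cells rest. In whole-organ RNA, fewer dividing cells and less RNA per cell cannot be told apart.

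The promoters are shown because these genes share a regulation known from other work: E2F factors act on many S phase genes, and CCAAT boxes and the CHR element recur in promoters of genes used by dividing cells. The 250 bases before the start given for each gene in a promoter table made from RefSeq (build GRCm38.p6), in which all 5 genes were found, are printed 5' to 3' on the strand of the gene. That start is the outer limit of the RefSeq gene for Mcm2, Pcna and Rrm2, but lies 442 bases inside it for Cdc6 and 10 bases inside it for Top2a, so the Cdc6 window lies within the outer limits of its gene. Capitals mark the words searched on both strands: for E2F the word TTCCCGC with its variant TTCGCGC, the form TTGCCGC and the form TTGGCGC, for the CCAAT box its own letters, and for CHR the word TTTGAA. The windows are chr11:98907901-98908150 on the plus strand for Cdc6, chr6:88898781-88899030 on the minus strand for Mcm2, chr2:132253181-132253430 on the minus strand for Pcna, chr12:24708004-24708253 on the plus strand for Rrm2 and chr11:99024190-99024439 on the minus strand for Top2a.
Cdc6: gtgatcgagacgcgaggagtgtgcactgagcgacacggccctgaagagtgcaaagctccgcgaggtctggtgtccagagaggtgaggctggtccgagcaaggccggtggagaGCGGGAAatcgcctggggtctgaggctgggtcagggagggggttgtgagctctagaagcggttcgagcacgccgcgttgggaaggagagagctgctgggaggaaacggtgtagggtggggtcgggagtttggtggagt
Mcm2: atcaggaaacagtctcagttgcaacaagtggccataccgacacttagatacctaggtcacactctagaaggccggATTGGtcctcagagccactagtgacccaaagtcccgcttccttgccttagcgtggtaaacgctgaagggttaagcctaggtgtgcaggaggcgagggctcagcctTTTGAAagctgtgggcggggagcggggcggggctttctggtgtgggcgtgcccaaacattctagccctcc
Pcna: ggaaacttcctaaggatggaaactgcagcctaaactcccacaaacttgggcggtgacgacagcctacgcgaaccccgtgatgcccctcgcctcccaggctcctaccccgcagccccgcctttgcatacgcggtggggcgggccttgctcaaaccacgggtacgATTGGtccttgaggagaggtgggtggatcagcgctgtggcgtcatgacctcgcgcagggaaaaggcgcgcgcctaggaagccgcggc
Rrm2: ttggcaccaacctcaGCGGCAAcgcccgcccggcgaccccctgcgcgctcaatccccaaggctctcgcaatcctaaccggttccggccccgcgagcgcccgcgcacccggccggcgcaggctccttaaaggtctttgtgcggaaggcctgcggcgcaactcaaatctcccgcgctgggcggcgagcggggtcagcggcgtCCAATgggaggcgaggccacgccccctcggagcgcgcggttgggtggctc
Top2a: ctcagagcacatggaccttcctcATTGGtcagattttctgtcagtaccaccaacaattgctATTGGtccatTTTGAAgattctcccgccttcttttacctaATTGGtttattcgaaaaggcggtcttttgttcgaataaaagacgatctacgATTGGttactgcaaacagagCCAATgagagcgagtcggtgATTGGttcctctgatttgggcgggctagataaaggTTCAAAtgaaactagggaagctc

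The windows differed in what they held. Cdc6 had 1 E2F word, beginning 138 bases before the start used here, and no CCAAT. Rrm2 had 1 E2F word and 1 CCAAT, Pcna had 1 CCAAT, and Mcm2 had 1 CCAAT and 1 CHR word. The Top2a window held 6 CCAAT words and 2 CHR words. Over 32851 promoter windows of the same length, 7.89% held an E2F word, 33.8% a CCAAT and 16% a CHR word. At least 2 CCAAT words were found in 10.1% and at least 6 in 0.0578% (19 windows), the last limit being set after the Top2a window was seen. A match here is a run of letters and not a site shown to be bound.

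In wild-type spleen every one of the 5 genes lay below the pool in every cloned mouse. Their mean ratio was -0.626, -0.661, -0.719 and -0.732 in wt mice 1 to 4, or -0.685 ± 0.05 (SD, n = 4), which is 62.2% of the pool's signal. The 5 genes are all lower in 4 of 4 wt spleens, where 7% of the 16739 features with 4 values were; the genes were chosen on these ratios, so nothing is read from that comparison. In the spleen of Dll1 clones the mean ratio was -0.0987, -0.556, -0.552 and -0.26 in mice 1 to 4, or -0.367 ± 0.226 (SD, n = 4), 77.6% of the pool. The Dll1 spleens were uneven: mice 2 and 3 lay near the wt clones and mouse 1 near the pool. Mcm2 and Top2a, 2 of the 5 genes, were lower in 4 of 4 Dll1 spleens, as were 7.3% of 16623 features, and both were therefore lower in 8 of 8 spleens, as were 0.962% of 16430 features. Nothing is read from these shares either, since the genes were chosen on spleen ratios.

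**Figure D1:**
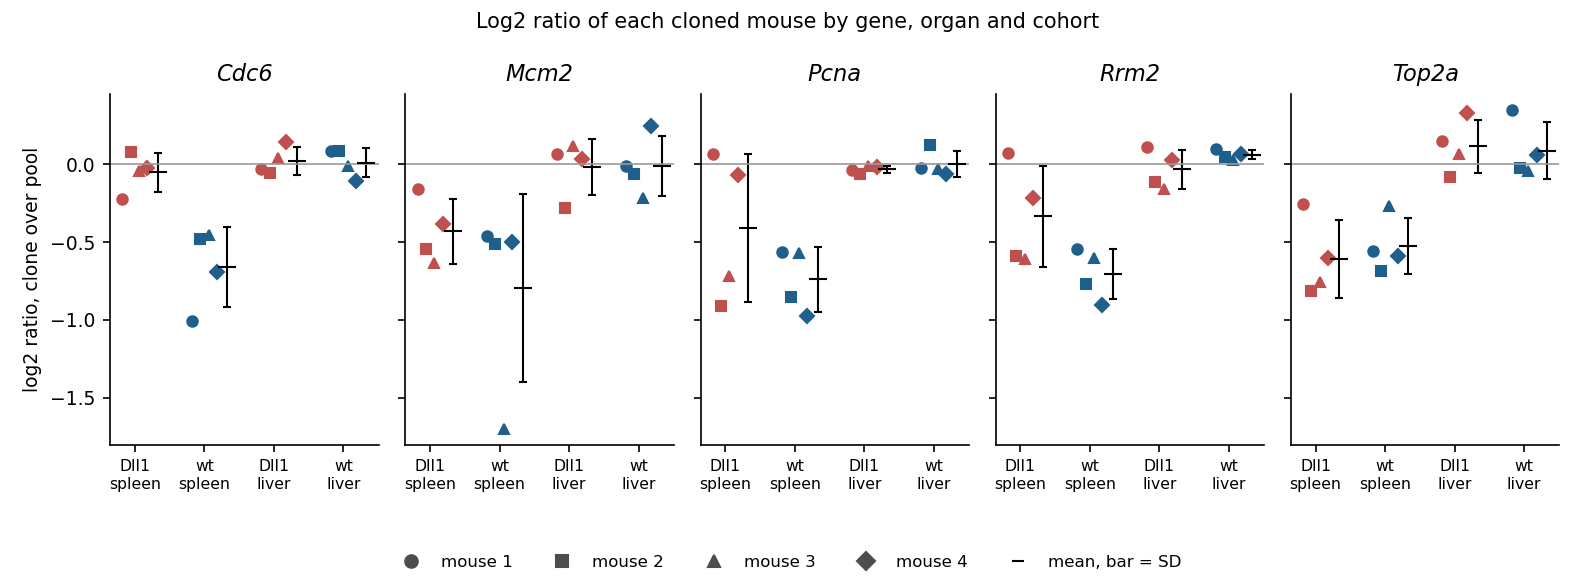
Log2 ratio of clone over pool (y axis) for each of the 5 genes in each group, 1 point per mouse with a symbol for each mouse, red for Dll1 and blue for wt clones, and the mean with its SD in black. All wt spleen points lie below 0 and liver points lie close to 0, while Dll1 spleens spread more widely from mouse to mouse.

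Cdc6 and Mcm2 act at origins before synthesis starts. Cdc6 lay at -0.22, 0.0815, -0.04 and -0.0235 in Dll1 spleens (mean -0.051 ± 0.125, SD, n = 4), against -1.01, -0.482, -0.452 and -0.695 in wt spleens (-0.659 ± 0.256, SD, n = 4). The cohorts did not overlap, with a difference of Dll1 minus wt of 0.61 (SE 0.142). Over all features 3.23% of 16430 had cohorts apart in this way, in either direction, and nothing is read from that, since the gene was chosen on these values. The difference rests on 1 of the 2 Cdc6 probes. The first lay at -0.50 in Dll1 and -0.53 in wt spleens, whereas the second lay at 0.40 in Dll1 and -0.79 in wt spleens, and the r between them over 16 spleen arrays was -0.606. The second probe reached 1.22 in Dll1 mouse 2 and -1.68 in wt mouse 1. Which probe reports Cdc6 was not tested.

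Mcm2 had 1 probe, at -0.158, -0.544, -0.637 and -0.385 in Dll1 spleens (-0.431 ± 0.209, SD, n = 4). In wt spleens it lay at -0.461, -0.514, -1.7 and -0.501 (-0.795 ± 0.606, SD, n = 4). Mouse 3 stood far below the other wt mice, and without it the wt mean was -0.49, inside the range of the Dll1 spleens.

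Pcna, the clamp, lay at 0.0665, -0.913, -0.716 and -0.0708 in Dll1 spleens (-0.409 ± 0.479, SD, n = 4), and at -0.24 without mouse 2. In wt spleens it lay at -0.564, -0.851, -0.568 and -0.976 (-0.74 ± 0.207, SD, n = 4). Dll1 mice 2 and 3 were as low as the wt clones, and Dll1 mice 1 and 4 were near the pool. The 2 Pcna probes had means of -0.41 and -0.41 in Dll1 spleens and -0.77 and -0.71 in wt spleens.

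Rrm2, which supplies deoxynucleotides, lay at 0.0745, -0.586, -0.608 and -0.217 in Dll1 spleens (-0.334 ± 0.326, SD, n = 4), against -0.542, -0.77, -0.604 and -0.903 in wt spleens (-0.705 ± 0.164, SD, n = 4). As for Pcna, Dll1 mice 1 and 4 lay above Dll1 mice 2 and 3, and the cohorts overlapped. Its probes had means of -0.45 and -0.22 in Dll1 spleens and -0.69 and -0.72 in wt spleens.

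Top2a, the topoisomerase, was the one gene of the 5 whose mean was lower in Dll1 than in wt spleens. It lay at -0.256, -0.816, -0.758 and -0.602 in Dll1 spleens (-0.608 ± 0.251, SD, n = 4), against -0.556, -0.688, -0.268 and -0.586 in wt spleens (-0.524 ± 0.18, SD, n = 4). The difference of Dll1 minus wt was -0.08 (SE 0.155), and the cohorts overlapped, as they did for Mcm2 (0.36, SE 0.321), Pcna (0.33, SE 0.261) and Rrm2 (0.37, SE 0.183).

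The genes varied together over the 8 spleens only in part. Pcna and Rrm2 followed each other at a Pearson r of 0.946, and Pcna and Top2a at 0.602, whereas Mcm2 and Top2a had an r of -0.324. Over all 10 pairs r ran between -0.324 and 0.946 in spleen, with 8 above 0, and between -0.107 and 0.59 in liver. The points share arrays, pools and cohorts, so these r values are descriptions.

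The genes were chosen on spleen ratios, so their rank among all features follows from the choice and nothing is read from it. Against all features of a group, the wt spleen values lay in the lower tail. Mcm2 had 1.08% of 17009 features below it, Pcna 1.3%, Rrm2 1.59%, Cdc6 1.87% and Top2a 3.34%. In Dll1 spleens 4.8% of 16999 features lay below Top2a, 9.82% below Mcm2, 10.9% below Pcna, 14.7% below Rrm2 and 42% below Cdc6. Spleen ratios were noisier than liver ratios: over the 4 mice the SD of a feature had a median of 0.46 in Dll1 and 0.282 in wt spleens, against 0.11 in Dll1 and 0.087 in wt livers. Per array, 390 to 2966 values were missing in Dll1 spleen, 270 to 1180 in wt spleen and 74 to 288 in liver, none of them of these 5 genes.

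The same mice showed no such ratios in liver. The mean of the 5 genes was 0.0515, -0.118, 0.0114 and 0.106 in Dll1 livers, and 0.101, 0.035, -0.053 and 0.0403 in wt livers, so each cohort lay on both sides of the pool. In the Dll1 clones spleen minus liver of the same mouse averaged -0.38 ± 0.173, and in the wt clones -0.72 ± 0.0455 (SD, n = 4 each), below 0 in 4 of 4 mice of each cohort. Spleen lay below liver in 4 of 4 mice for 6.98% of 16596 features in Dll1 clones and 8.03% of 16721 in wt clones, and the spleen side of this difference was used to choose the genes.

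None of the 5 genes passed the test in liver (limma, Benjamini-Hochberg adjusted p under 0.05 over all features), and none had an unadjusted p under 0.05. In Dll1 liver, where no feature of 17037 passed (0%, with 5.52% at an unadjusted p under 0.05), Cdc6 lay at 0.03, Mcm2 at -0.02, Pcna at -0.03, Rrm2 at -0.03 and Top2a at 0.12, with adjusted p-values from 0.796 to 0.967 by limma. In wt liver, where 16 of 17037 features passed (0.0939%, with 11.6% at an unadjusted p under 0.05), Cdc6 and Mcm2 lay at 0.01 and -0.01, Pcna at 0.004, Rrm2 at 0.06 and Top2a at 0.09, with adjusted p-values from 0.541 to 0.979 by limma. Of the 95% intervals of the fit the lowest limits were those of Mcm2, at -0.2 in Dll1 and -0.18 in wt liver. For Pcna the intervals ran from -0.13 to 0.07 in Dll1 and from -0.1 to 0.11 in wt liver. These intervals hold the spread between clones, not that among conventional animals, and only for the arrays as read here. With the Cy3 arrays turned, each of the 5 genes lay outside its interval in wt liver. Cdc6 was then at 0.15, Mcm2 at 0.17, Pcna at 0.24, Rrm2 at -0.05 and Top2a at -0.29. In Dll1 liver Cdc6 (-0.17) and Pcna (0.14) then lay outside, and Mcm2, Rrm2 and Top2a inside.

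Single genes leaned within those intervals. Pcna was below the pool in 4 of 4 Dll1 livers, at -0.039, -0.0622, -0.011 and -0.014, as were 9.83% of 16982 features. Rrm2 was above it in 4 of 4 wt livers, at 0.099, 0.0488, 0.0298 and 0.0645 (SE 0.0358, adjusted p = 0.541 by limma), as were 11.6% of 16999 features. Top2a in wt liver lay at 0.353 in mouse 1, against -0.0405 to 0.059 in the other wt mice. Between the cohorts, the liver ratios of Dll1 minus wt were 0.013 for Cdc6, -0.006 for Mcm2, -0.036 for Pcna, -0.092 for Rrm2 and 0.029 for Top2a, and none passed (adjusted p-values from 0.935 to 0.996 by limma, where 0 of 17020 features passed, 0%, with 4.87% at an unadjusted p under 0.05).

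The spleen ratios differed with the dye in which the clone was labelled. In Dll1 spleens Pcna averaged -0.12 with the clone in Cy5 and -0.70 with it in Cy3, Rrm2 -0.10 and -0.56, and Mcm2 0.14 and -1.0. In wt spleens Pcna averaged -0.49 with the clone in Cy5 and -0.99 in Cy3, Rrm2 -0.41 and -1.0, and Mcm2 -0.26 and -1.33. For these 3 genes the Cy5 array was above the Cy3 array in 4 of 4 mice of both cohorts, which held for 15.5% of 12628 features in Dll1 and 24.8% of 15120 in wt spleens.

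Cdc6 and Top2a leaned the other way or not at all. Cdc6 averaged -0.06 in Cy5 and -0.04 in Cy3 in Dll1 spleens, and -0.78 and -0.54 in wt spleens. Top2a averaged -0.79 and -0.43 in Dll1 spleens and -0.59 and -0.46 in wt spleens. Below 0 on 8 of 8 arrays were Top2a in Dll1 spleen, as were 0.578% of 12628 features, and Cdc6, Pcna, Rrm2 and Top2a in wt spleen, as were 0.589% of 15120 features. Mcm2 was below 0 on 7 of 8 wt arrays. The genes were chosen on spleen ratios, so nothing is read from these shares.

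For Pcna and Rrm2 the mice stood in a like order in both dyes. Over the 8 spleens the r between the Cy5 and the Cy3 arrays of the same mouse was 0.821 for Pcna and 0.89 for Rrm2, against 0.225 for Cdc6, 0.182 for Mcm2 and 0.0737 for Top2a. Of the Dll1 spleens, Pcna lay at -0.363 and -1.464 in mouse 2 (Cy5, then Cy3) and at 0.19 and -0.057 in mouse 1. Liver ratios differed with the dye too. In wt liver Pcna averaged 0.25 in Cy5 and -0.24 in Cy3, and Top2a -0.20 and 0.37. Cdc6 averaged 0.16 and -0.14 there, and Rrm2 0.01 and 0.11. In Dll1 liver Pcna averaged 0.11 and -0.17, Cdc6 -0.15 and 0.20, and Top2a 0.11 and 0.12. Some liver means near 0 thus average dyes of opposite sign.

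**Figure D2:**
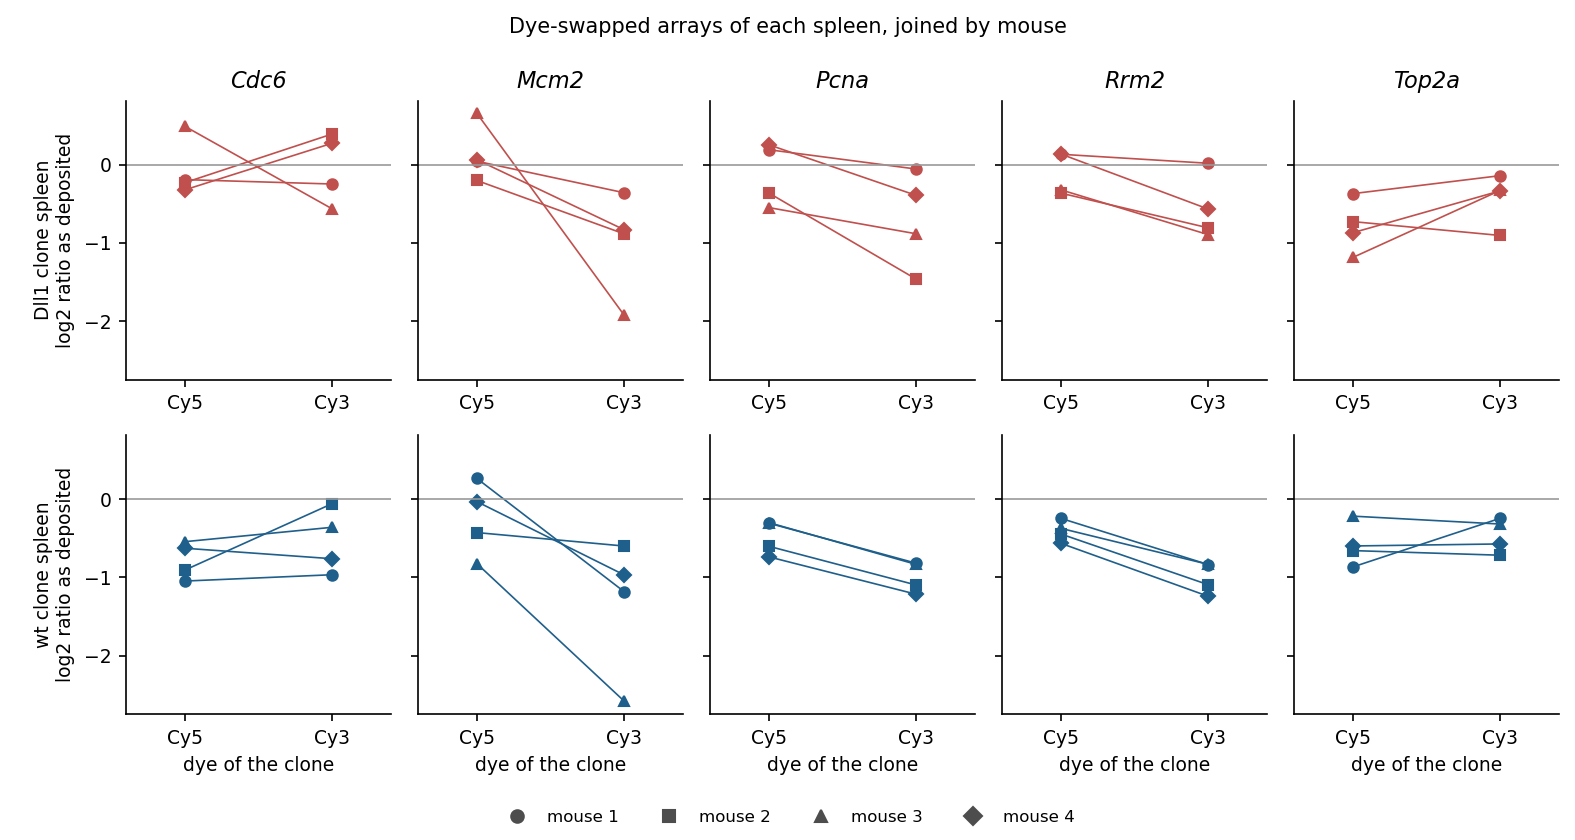
Log2 ratio as deposited (y axis) of the array with the clone in Cy5 and of the array with it in Cy3 (x axis) for each of the 5 genes, Dll1 spleens above and wt spleens below, the arrays of a mouse joined by a line. Pcna, Rrm2 and Mcm2 are lower in Cy3 in every mouse, and among the wt spleens mouse 4 is the lowest in both dyes for Pcna and Rrm2.

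Which way the Cy3 arrays run is not stated by the labels, and every ratio here depends on it. The values were read as already turned to clone over pool on all arrays. Over all probes the 2 arrays of a mouse had an r between -0.172 and -0.0763 in Dll1 spleen and between -0.2 and -0.152 in wt spleen. It was between -0.196 and -0.0266 in Dll1 liver and -0.715 and -0.251 in wt liver, so the arrays as a whole do not settle the direction. Different mice in the same dye had an r of 0.104 to 0.233 in Dll1 spleen and 0.155 to 0.283 in wt spleen. In liver it was 0.057 to 0.434 in Dll1 and 0.445 to 0.735 in wt clones. The means of the 2 dyes had an r of -0.298 in Dll1 spleen, -0.384 in wt spleen, -0.258 in Dll1 liver and -0.7 in wt liver. The cause was not tested. With the sign of the Cy3 arrays turned, the mean of the 5 genes was 0.179 in Dll1 and 0.181 in wt spleens, and 0 of the 5 genes were lower in 4 of 4 mice of either cohort. The single genes were then at -0.01 and -0.12 for Cdc6, 0.57 and 0.54 for Mcm2, 0.29 and 0.25 for Pcna, 0.23 and 0.30 for Rrm2 and -0.18 and -0.06 for Top2a (Dll1, then wt spleens). In wt liver 4 of the 5 genes then passed by limma: Cdc6 at 0.15 (adjusted p = 0.0296), Mcm2 at 0.17 (0.0465), Pcna at 0.24 (0.00715) and Top2a at -0.29 (0.00394), among 9397 of 17037 features. That the clone is on top of the ratio follows the word order of the sample titles, and the other order would turn every sign.

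The rest of the replication machinery lay lower in wt spleen by less. Of 57 listed genes other than the 5, 37 were measured. In Dll1 spleens 22 of the 37 lay below 0, with a median of -0.06, where 49.3% of all features lay below 0 and the median of all was 0.005. In wt spleens 30 of the 37 lay below 0 (81.1%), with a median of -0.21, where 47.4% of all features did and their median was 0.011. No gene of the list passed by limma in either spleen (0%, no feature did), with 1 lower and 0 higher at an unadjusted p under 0.05 in Dll1 and 9 lower and 0 higher in wt spleens, where 4.89% of all features in Dll1 and 5.87% in wt spleens had such a p in either direction. In simulated data the same fit recovered 0% of log2 changes of 0.5 in either spleen. Of changes of 1 it recovered 0% in Dll1 and 29% in wt spleen. That none passed, here or in the lists below, therefore does not show that a gene is unchanged. Of the 36 with 4 values, 4 (11.1%) were lower in 4 of 4 Dll1 spleens and 14 (38.9%) in 4 of 4 wt spleens, as were 7.3% and 7% of all features with 4 values. In liver the list had a median of 0.01 in both cohorts. With the Cy3 arrays turned the counts below 0 were 20 in Dll1 and 15 in wt spleens, the wt median then being 0.07.

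The partners of Mcm2 in the helicase ring, named after their values were seen, were all on the low side in wt spleen. Mcm6 lay at -0.18 ± 0.277 in Dll1 and -0.47 ± 0.17 in wt spleens, Mcm3 at -0.25 ± 0.305 and -0.46 ± 0.363, Mcm4 at 0.43 ± 0.711 and -0.28 ± 0.157, Mcm7 at -0.27 ± 0.388 and -0.18 ± 0.238, and Mcm5 at 0.04 ± 0.129 and -0.15 ± 0.0195 (SD, n = 4 mice each, Dll1 first). Of these 5 subunits, 3 had a mean below 0 in Dll1 and 5 in wt spleens, and 4 were lower in 4 of 4 wt mice. The DNA polymerase and primase subunits counted 5 of 10 below 0 in Dll1 and 9 of 10 in wt spleens. Genes of origin recognition and licensing counted 3 of 5 and 4 of 5, and those of helicase activation 2 of 5 and 4 of 5. The clamp loader genes Rfc1 and Rfc4 counted 2 of 2 and 1 of 2. Lig1, Fen1 and Rnaseh2c, of Okazaki fragment maturation, counted 2 of 3 in both, and Rpa1, the 1 single-strand binding gene, was below 0 in both. Of all features 49.3% lay below 0 in Dll1 and 47.4% in wt spleens, and 7% were lower in 4 of 4 wt spleens.

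Prim2, a primase subunit, lay at -0.75 ± 0.246 in Dll1 and -0.56 ± 0.927 in wt spleens, and Pold4, a subunit of polymerase delta, at -0.38 ± 0.438 and -0.52 ± 0.881 (SD, n = 4 each). Cdc45, which joins the active helicase, lay at 0.38 ± 0.303 in Dll1 and -0.68 ± 1.13 in wt spleens. Rfc1, of the clamp loader that places Pcna on DNA, lay at -0.84 ± 1.12 in Dll1 and 0.32 ± 0.585 in wt spleens. Tipin and Timeless, partners that protect the fork, lay at 0.48 and -0.36 in Dll1 and at -0.29 and 0.36 in wt spleens. Gmnn, the inhibitor of licensing, lay at 0.48 in Dll1 and 0.50 in wt spleens with values of 3 mice each.

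Deoxynucleotide supply, the pathway of Rrm2, had 13 of 19 listed genes measured. Their median was -0.06 in Dll1 (8 of 13 below 0) and -0.09 in wt spleens (9 of 13), where 49.3% and 47.4% of all features lay below 0. None passed by limma, with 1 lower and 1 higher in Dll1 and 4 lower and 0 higher in wt spleens at an unadjusted p under 0.05. Of all features 4.89% in Dll1 and 5.87% in wt spleens had such a p in either direction. Rrm1, the large subunit that pairs with Rrm2, lay at -0.27 ± 0.418 in Dll1 and -0.33 ± 0.0646 in wt spleens. Prps1, which makes the ribose phosphate donor of nucleotides, lay at -0.32 ± 0.418 in Dll1 and -0.75 ± 0.199 in wt spleens, and Mthfd1, of folate metabolism, at 0.15 ± 0.185 and -0.45 ± 0.291 (SD, n = 4 each). Cad, which starts pyrimidine synthesis, lay at -0.44 ± 0.241 in Dll1 and 0.20 ± 0.654 in wt spleens. Among the highest of the list, Umps lay at 0.6 ± 1.04 in Dll1 and -0.09 ± 0.278 in wt spleens. Rrm2b lay at 0.17 ± 0.958 and 0.17 ± 1.85, and Gart at -0.06 ± 0.129 and 0.16 ± 0.147 (Dll1 first). Dtymk, thymidylate kinase, lay at 2.05 ± 1.74 in Dll1 and -0.14 ± 0.618 in wt spleens and did not pass either (adjusted p = 0.84 by limma in Dll1). With the Cy3 arrays turned it lay at -1.98 in Dll1 and -0.82 in wt spleens.

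Of the chromatin genes of S phase, 10 of 12 listed were measured: 7 lay below 0 in Dll1 (median -0.33) and 9 in wt spleens (median -0.16), where 49.3% and 47.4% of all features did. None passed by limma, with 1 lower in Dll1 and 3 lower in wt spleens at an unadjusted p under 0.05. Of all features 4.89% and 5.87% had such a p in either direction. Dek, a chromatin protein abundant in dividing cells, lay at -0.47 ± 0.321 in Dll1 and -0.84 ± 0.196 in wt spleens, lower in 8 of 8 mice. Uhrf1, which helps to copy DNA methylation, lay at -0.43 ± 0.289 in Dll1 and -0.50 ± 0.263 in wt spleens, and Asf1b, a histone chaperone, at -0.39 ± 0.413 and -0.43 ± 0.0581. Chaf1a, of the assembly factor that Pcna recruits, lay at -0.51 ± 0.337 in Dll1 and -0.15 ± 0.627 in wt spleens, and H2ax, a histone variant, at -0.80 ± 1.16 and -0.22 ± 0.158 (SD, n = 4 each). With the Cy3 arrays turned Dek lay at -0.02 in Dll1 and 0.25 in wt spleens, and Uhrf1 at 0.15 and 0.32. H2az1, another variant, lay at 0.36 ± 0.154 in Dll1 and -0.12 ± 0.189 in wt spleens, its 2 probes having opposite signs in Dll1. Also among the highest of the list, Chaf1b lay at 0.08 ± 0.765 in Dll1 and 0.49 ± 0.872 in wt spleens. Dnmt1 lay at 0.1 ± 0.27 and -0.12 ± 0.252, and Nasp at -0.08 ± 0.704 and -0.02 ± 0.583 (Dll1 first).

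Genes of cell cycle entry had 19 of 25 measured, with 13 below 0 in Dll1 (median -0.21) and 16 in wt spleens (median -0.12), where 49.3% and 47.4% of all features lay below 0. None passed by limma, with 1 lower in Dll1 and 3 lower in wt spleens at an unadjusted p under 0.05. Of all features 4.89% and 5.87% had such a p in either direction. Ccna2, cyclin A2 of S phase, lay at -0.21 ± 0.372 in Dll1 and -0.50 ± 0.0891 in wt spleens, both probes being below 0 in each cohort. With the Cy3 arrays turned it lay at 0.29 in Dll1 and 0.13 in wt spleens. Ccnd2, a cyclin D, lay at -0.33 ± 1.23 in Dll1 and -0.82 ± 0.813 in wt spleens, with only 1 of its 2 probes below 0 in wt. Mybl2, a regulator of late cell cycle genes, lay at -0.37 ± 0.47 in Dll1 and -0.59 ± 1.55 in wt spleens. The kinases Cdk2 and Cdk6 lay at -0.51 ± 0.366 and -0.51 ± 0.568 in Dll1 spleens, against -0.09 ± 0.782 and 0.01 ± 0.183 in wt spleens. The inhibitor gene Cdkn1b lay at -0.39 ± 0.319 in Dll1 and 0.04 ± 0.568 in wt spleens (SD, n = 4 each). Rbl1, a relative of the retinoblastoma protein, lay at 0.63 ± 1.08 in Dll1 and -0.22 ± 0.576 in wt spleens, and at -0.64 and -0.18 with the Cy3 arrays turned. Also among the highest of the list, E2f1 lay at 0.12 ± 0.357 in Dll1 and -0.12 ± 0.153 in wt spleens. Myc lay at 0.12 ± 0.375 and -0.02 ± 0.165, and Rbl2 at -0.29 ± 0.395 and 0.09 ± 0.241 (Dll1 first). In liver the medians of the 3 lists lay between -0.02 and 0.03 in both cohorts.

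**Figure D3:**
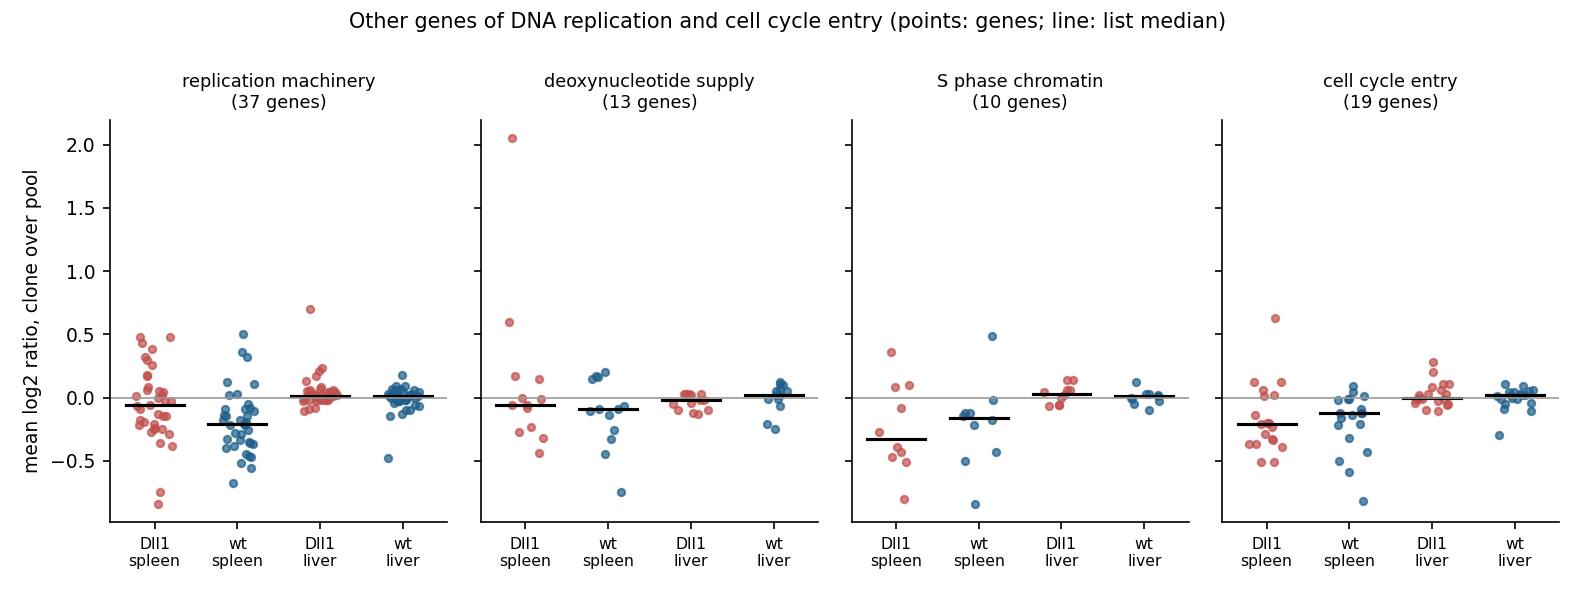
Mean log2 ratio of clone over pool (y axis) of each measured gene of 4 lists, the 5 chosen genes left out, in each group; points are genes, red for Dll1 and blue for wt clones, and the line is the median of the list. The spleen medians lie between -0.33 and -0.06 and the liver medians between -0.02 and 0.03.

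The named genes most like the mean of the 5 over all 16 organ samples, by Pearson r among 16413 features with a value in each, were Dek (0.943), Alad (0.928), Liph (0.903), Kpna2 (0.902) and Tuba1b (0.891). These 16 points fall into spleens and livers, and within the 8 spleens the r values were 0.806, 0.876, 0.895, 0.802 and 0.729 in the same order. Alad, an enzyme of haem synthesis, lay at -0.16 ± 0.0911 in Dll1 and -0.42 ± 0.102 in wt spleens. Liph, a lipase, lay at -0.23 ± 0.28 and -0.44 ± 0.132. Kpna2, a nuclear import receptor, lay at -0.36 ± 0.406 and -0.58 ± 0.194, and Tuba1b, an alpha tubulin, at -0.39 ± 0.36 and -0.49 ± 0.143 (SD, n = 4 each, Dll1 first). The samples share the pools and arrays, so likeness here is a description.

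Markers of red cell precursors lay mostly below the pool in both spleens. Of 15 measured erythroid markers, 13 lay below 0 in Dll1 and 12 in wt spleens, with medians of -0.40 and -0.37, while the mean of the 5 replication genes was -0.367 in Dll1 and -0.685 in wt spleens. Of all features 49.3% lay below 0 in Dll1 and 47.4% in wt spleens, the share to set beside the marker counts below too. Of the 15, 7 were lower in 4 of 4 Dll1 and 9 in 4 of 4 wt spleens, as were 7.3% and 7% of all features. Their median in each mouse was -0.13, -1.1, -0.7 and -0.06 in Dll1 spleens and -0.34, -0.31, -0.35 and -0.6 in wt spleens, so Dll1 mice 2 and 3 were low in both sets. Hba-a1, a haemoglobin chain, averaged -1.06 ± 0.857 in Dll1 and -0.37 ± 0.281 in wt spleens, and Alas2, the first enzyme of haem synthesis in red cells, -0.56 ± 0.475 and -0.14 ± 0.219 (SD, n = 4 each). The other markers went both ways, and those given here were named after their values were seen. Car2 averaged -0.76 in Dll1 and -1.03 in wt spleens, and Prdx2 -0.84 and -0.95. Rhd was lower in Dll1, at -0.83 against -0.64 in wt spleens, as was Kel, at -0.3 against -0.01. The part of red cell precursors in the replication ratios was not tested.

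Of 10 measured neutrophil and myeloid markers, 6 lay below 0 in Dll1 and 3 in wt spleens. Their medians by mouse were -0.13, -0.48, -0.66 and 0.07 in Dll1 spleens and 0.15, 0.06, 0.11 and 0.03 in wt spleens. S100a8 and S100a9, the lowest of the list in Dll1, lay at -0.74 ± 0.645 and -0.82 ± 0.23 in Dll1 spleens, against -0.26 ± 0.264 and -0.06 ± 0.318 in wt spleens. Lyz2 and Itgam, the highest of the list in Dll1 and named after their values were seen, lay at 0.31 ± 0.164 and 0.26 ± 0.195 in Dll1 spleens, against 0.76 ± 0.0477 and 0.02 ± 0.192 in wt spleens. The myeloid medians were below 0 in Dll1 mice 1, 2 and 3 and above 0 in Dll1 mouse 4 and in all 4 wt spleens. Their part in the result was not tested.

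B cell markers stood on the other side of the pool. Of 8 measured, 6 lay above 0 in Dll1 and 8 in wt spleens, with medians per mouse of 0.11 to 0.21 in Dll1 and 0.1 to 0.45 in wt spleens. Ms4a1, which encodes CD20, lay at 0.44 ± 0.0799 in Dll1 and 0.71 ± 0.0996 in wt spleens, and Cd79b, of the B cell receptor, at 0.12 in both. Of 4 germinal centre and plasma cell markers the median was -0.08 in Dll1 and -0.03 in wt spleens, with Bcl6 at -0.19 and -0.03 and Xbp1 at 0.60 and -0.03. T cell markers, 11 measured, had medians per mouse of 0 to 0.21 in Dll1 and -0.09 to 0.2 in wt spleens, and 8 of the 11 lay above 0 in Dll1 and 7 in wt spleens. Cd3d and Cd3e, the lowest of this list in Dll1, lay at -0.31 and -0.33 in Dll1 and at 0.08 and -0.02 in wt spleens, and Cd8b1, the highest in Dll1 and named after its value was seen, at 0.53 and 0.15 (Dll1 first). Their part in the result was not tested either.

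Acinar cells of the adjoining pancreas can come along when a spleen is taken. Their 6 measured markers had medians per mouse of -0.23 to 0.18 in Dll1 and -0.15 to 0.64 in wt spleens, the highest in wt mouse 1. Cpa1 lay at 0.11 ± 0.447 in Dll1 and 0.73 ± 0.104 in wt spleens, and Pnliprp1 at 0.03 and 0.13. Hepatocyte markers lay below 0 for 11 of 11 in both livers, where 51.7% of all features did in Dll1 and 45.2% in wt liver, with medians of -0.12 in Dll1 and -0.20 in wt liver. In spleen, Alb lay at -0.20 in Dll1 and 0.23 in wt clones and Apoa1 at 0.22 and 0.08. As ratios to a pool, these markers give no level of their own, so the labelled organ cannot be checked by whether a marker is present.

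**Figure D4:**
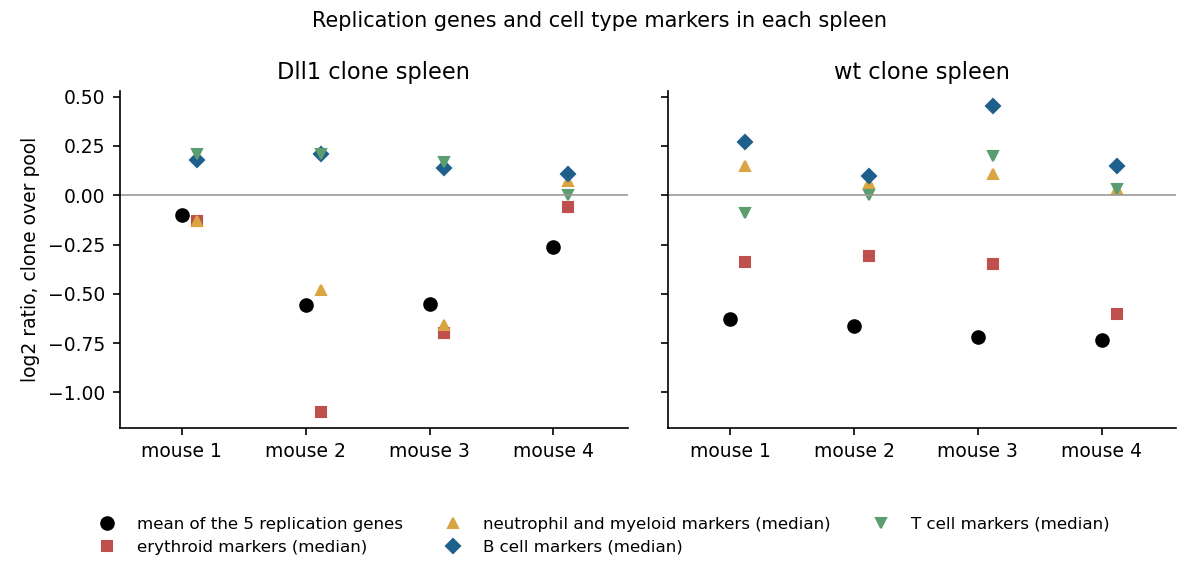
Mean log2 ratio of the 5 replication genes (black circles) and the median log2 ratio of 4 marker lists (coloured symbols) in each spleen, Dll1 clones on the left and wt clones on the right; the y axis is the log2 ratio of clone over pool. In Dll1 mice 2 and 3 replication genes, erythroid and myeloid markers are all low, and in every spleen B cell markers lie above 0.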

How the data were processed

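RNA of each cloned mouse and of a pool was labelled with Cy3 and Cy5 and hybridised together, per the labels' protocols. The authors deposited 1 log2 ratio per probe and array. How the arrays were scanned, corrected for background, normalized and filtered is not given in the sources used here. Base 2 was inferred from constants near the log2 of the scanner maximum, which mark spots without a ratio. The 1183 values over 9 in size were set to missing. Array medians lay between -0.067 and 0.079, and no further normalization was made. Arrays were averaged per mouse and probes per gene. Each liver group was tested against 0, and the cohorts against each other, with limma 3.58.1 (lmFit, eBayes; R 4.3.3) on features with a value in at least 3 of 4 mice, adjusted by Benjamini-Hochberg over all of them, at a threshold of 0.05. The fit was tested on simulated data with the SD of each feature. Of planted log2 changes of 0.5 it recovered 76% in Dll1 and 90% in wt liver, but 0% in either spleen. Of changes of 1 it recovered 89% in Dll1 and 97% in wt liver, and 0% in Dll1 and 29% in wt spleen. Figures used Python 3.11.15 and matplotlib 3.10.9. The precision is limited by the 4 mice of a group and by the pool they share, and signal over background was not analysed here.

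The genes and lists were chosen with earlier results of these data known. Named genes are the 5, the 3 lowest and 3 highest of each pathway list in each spleen, and the 5 most like the mean of the 5. The 2 first-listed measured genes of each marker list are named too. Other names were chosen after their values were seen. Alternatives were the sign of the Cy3 arrays, the size limit, centring, scaling, the handling of missing arrays, probes and names, single arrays with mouse as a random block, 1 fit of all groups, leaving out each mouse, and a block for the replicate numbers of the titles. Same-numbered titles belong to different animals, and their liver deviations correlated at 0.001 to 0.108, so the numbers do not pair the mice.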

Additional observations from a re-analysis of the deposited data

Results flagged for a closer look

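Mcm2 in the spleen of wt clones had 1 mouse far from the others: mouse 3 lay at -1.7 on the log2 scale, against -0.514 to -0.461 in the other 3. The gap was 0.957 of the range of the 4 values. It was the only such gap among 20 sets of 4 mice, and chance gives about 1 in 20; since the gene was chosen from these values, this is a description and not a test. Its arrays lay at -0.825 with the clone in Cy5 and -2.583 in Cy3, both the lowest of the wt spleens.

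Rrm2 in wt clones lay below 0 in all 4 spleens and above 0 in all 4 livers of the same mice, with a spleen minus liver difference of -0.77 ± 0.16 (SD, n = 4). This difference was not tested, since the gene was chosen from the spleen values.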

How the results depend on the processing

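The direction of the Cy3 arrays and the row shift of the names decide the results; their causes were not tested. With the Cy3 arrays turned, the mean of the 5 genes was 0.179 in Dll1 and 0.181 in wt spleen, 15 of 37 other replication genes lay below 0 in wt spleen, and 4 genes passed in wt liver and 2 in the liver difference. Signs then turned for Cdc6 (-0.17), Pcna (0.14), Rrm2 (0.09) and Top2a (-0.01) in Dll1 liver, for Mcm2 (0.17), Rrm2 (-0.05) and Top2a (-0.29) in wt liver, and for Cdc6 (-0.32) and Rrm2 (0.14) in the liver difference of Dll1 minus wt. With names read without the shift, the means were 0.203 in Dll1 and -0.057 in wt spleen, 18 replication genes lay below 0 in wt spleen, and signs turned for Pcna (0.03) and Top2a (-0.05) in Dll1 liver, Cdc6 (-0.05) in wt liver, and Pcna (0.01) and Top2a (-0.22) in the liver difference. On single dyes, added after seeing the data, the wt spleen mean was -0.503 on Cy5 arrays and -0.866 on Cy3 arrays, and 4 and 5 genes were lower in 4 of 4 wt spleens. The Dll1 spleen mean was -0.187 on Cy5 and -0.546 on Cy3 arrays, and 1 and 3 genes were lower in 4 of 4 Dll1 spleens. Mcm2 in the liver difference turned to 0.01 after centring and 0 after scaling the arrays.

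Leaving out each mouse in turn, the mean of the 5 genes ranged over -0.018 to 0.056 in Dll1 liver, -0.456 to -0.303 in Dll1 spleen, 0.007 to 0.059 in wt liver and -0.704 to -0.669 in wt spleen. The replication genes below 0 numbered 19 to 23 in Dll1 and 29 to 31 in wt spleen, and 0 genes passed in liver. Single liver values near 0 changed sign: in Dll1 liver Cdc6 ranged over -0.02 to 0.05, Mcm2 over -0.06 to 0.07 and Rrm2 over -0.08 to 0.01. In wt liver Cdc6 ranged over -0.01 to 0.05, Mcm2 over -0.1 to 0.06, Pcna over -0.04 to 0.03 and Top2a over 0 to 0.13. In the liver difference Cdc6 ranged over -0.03 to 0.04, Mcm2 over -0.07 to 0.08, Pcna over -0.06 to 0 and Top2a over -0.04 to 0.12. Apart from the turned Cy3 arrays, none of 235 liver values under the alternatives passed by limma, the lowest adjusted p being 0.292. With the replicate block (title numbers as a paired block) 0 genes passed in the liver difference, and the block changed no call.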
